A study of Mus musculus with 9 samples.

Results

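The ligands and receptors of 2 growth signals of the uterus, leukemia inhibitory factor (LIF) and the epidermal growth factor (EGF) family, were examined in the uterus of adult female mice. They were 10 genes taken by symbol: Lif and its receptor chains Lifr and Il6st, the EGF family ligands Areg, Ereg, Hbegf, Egf and Tgfa, and the receptors Egfr and Erbb3. Of these, 9 had a row among the 18094 genes of the count table, and Ereg was not analysed here. RNA was sequenced from the uterus of 9 mice killed at 13 weeks of age, 3 in each of 3 groups. Control mice were fed solvent without drug on days 1 to 5 after birth. Tamoxifen mice received 1 mg/kg of the estrogen receptor modulator tamoxifen on the same days, which is known to induce adenomyosis, the growth of endometrium into uterine muscle. Tamoxifen+primidone mice received the same tamoxifen and, from week 10, intraperitoneal primidone, an anticonvulsant, at 2 mg/kg per day for 3 weeks. Mice of the other groups were injected with vehicle over that time. The sources used here name neither strain nor estrous stage.

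LIF is a cytokine of the interleukin-6 family. It binds LIFR, which pairs with the shared signal-transducing chain gp130, encoded by Il6st, and the complex activates JAK kinases and STAT3. In the mouse uterus LIF is made by the glands under the influence of estrogen and is required for embryo implantation. The EGF family ligands are made as membrane proteins and released by proteases such as ADAM17. Amphiregulin (Areg), TGF-alpha (Tgfa) and EGF bind EGFR, and HB-EGF (Hbegf) and epiregulin bind EGFR and ERBB4. ERBB3 has little kinase activity of its own and signals in pairs with other ERBB receptors, mainly after binding neuregulins.

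Total counts were between 36393120 and 39958443 per library. Of the 9 genes, 8 passed the low-count filter of the edgeR fit over 15186 genes, and Areg did not. Uterine markers were abundant in each library: summed CPM (counts relative to the TMM-scaled library size) was 3823 to 5260 for 7 stromal genes, 5374 to 11360 for 7 smooth muscle genes and 3130 to 4570 for 10 epithelial genes. Markers of other organs moved with the groups. A list of 9 liver genes summed to 62.9 to 79.6 CPM in control, 104 to 212 in tamoxifen and 215 to 243 in tamoxifen+primidone libraries. The 6 genes of an ovary and oviduct list with a row summed to 17.5 to 46.6, 66.2 to 272.5 and 5.65 to 10.1 CPM in that order. Most of this in the tamoxifen libraries was the oviduct gene Ovgp1 (267, 61.9 and 124 CPM), while the oocyte gene Zp3 was at or below 0.0276 CPM in each library. Star, of the same list, was instead highest in control. It stood at 9.21 to 24.7 CPM in control, 1.55 to 6.34 in tamoxifen and 3.12 to 7.45 in tamoxifen+primidone libraries. Kidney and salivary gland markers, which would mark organs rich in Egf, summed to at most 0.594 and 0.462 CPM. Of the 5 genes in each of these lists, only 4 kidney and 2 salivary gland genes had a row.

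The upstream sequences of the 3 ligands that mark the extremes are shown: Lif had the largest difference from control, Tgfa was the steadier of the main EGFR ligands, and Areg was nearly silent. They are the 250 bases before the RefSeq transcription start on build GRCm38.p6, read 5′ to 3′ on the plus strand. The authors' build is GRCm39, so the coordinates serve only to identify the sequence. Lif is at chr11:4257318-4257567, Tgfa at chr6:86194972-86195221 and Areg at chr5:91139349-91139598. Capitals mark matches to the motifs listed after the sequences.
Lif: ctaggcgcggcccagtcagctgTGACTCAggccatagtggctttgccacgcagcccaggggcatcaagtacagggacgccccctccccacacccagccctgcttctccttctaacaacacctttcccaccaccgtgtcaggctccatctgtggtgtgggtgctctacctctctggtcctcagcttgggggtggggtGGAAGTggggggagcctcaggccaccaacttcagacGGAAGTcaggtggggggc
Tgfa: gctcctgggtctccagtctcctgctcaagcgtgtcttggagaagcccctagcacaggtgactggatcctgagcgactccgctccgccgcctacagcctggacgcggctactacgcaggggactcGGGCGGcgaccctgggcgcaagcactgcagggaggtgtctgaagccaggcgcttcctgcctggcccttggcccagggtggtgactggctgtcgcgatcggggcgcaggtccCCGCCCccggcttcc
Areg: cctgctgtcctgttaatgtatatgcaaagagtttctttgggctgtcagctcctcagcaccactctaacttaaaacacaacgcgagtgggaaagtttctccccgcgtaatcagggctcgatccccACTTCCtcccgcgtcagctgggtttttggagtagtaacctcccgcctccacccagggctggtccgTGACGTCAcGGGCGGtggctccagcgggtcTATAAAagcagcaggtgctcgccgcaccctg

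Motifs were searched as letters on both strands. The AP-1 motif, bound by FOS and JUN proteins, was written TGANTCA. The cyclic AMP response element, or CRE, was written TGACGTCA. The STAT motif, bound by STAT3 among others, was written TTCNNNGAA. The estrogen response element, or ERE, was GGTCA, any 3 bases and the reverse complement of GGTCA. The SP1 motif was written GGGCGG. The TATA box was written TATAAA. The core of the ETS motif, bound by ETS family factors, was written GGAAGT. No match overlapped another in these 3 sequences. Lif held AP-1 letters (first base 228 before the start) and ETS letters at 54 and 18, Tgfa held SP1 letters at 126 and 15, and Areg held ETS letters at 126, CRE at 61, SP1 at 52 and TATA at 31. Of 32851 promoter windows of the same length, 6.75% held AP-1, 19.7% ETS, 32.7% SP1, 1.55% CRE, 12.4% TATA, 7.02% STAT and 0.0639% ERE letters. The STAT and ERE letters are not in the 3 windows, which says nothing of sites elsewhere. The table had entries for 7 of the 10 genes and none for Ereg, Hbegf and Erbb3.

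Compared per length, in the authors' FPKM, the receptor genes Il6st and Erbb3 stood above every ligand, while Egfr and Lifr lay at the level of Hbegf and Tgfa. Il6st was the most abundant of the 9 genes, at 112 ± 14.1 FPKM (SD over 9 libraries), followed by Erbb3 at 20.6 ± 4.83. Egfr (5.59 ± 0.605), Hbegf (5.33 ± 1.71), Tgfa (4.97 ± 0.58) and Lifr (4.56 ± 0.932) came next, and each overlapped its neighbour in library ranges. The signal-transducing chain thus exceeded Lifr by 18.6- to 36.1-fold within a library. Lif stood at 1.79 ± 0.697 FPKM, with a highest library (2.93) below the lowest of Lifr (3.25). Egf (0.0894 ± 0.0279) and Areg (0.0622 ± 0.0557) were at the bottom and overlapped, 20.1-fold and more below Lif.

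**Figure D1:**
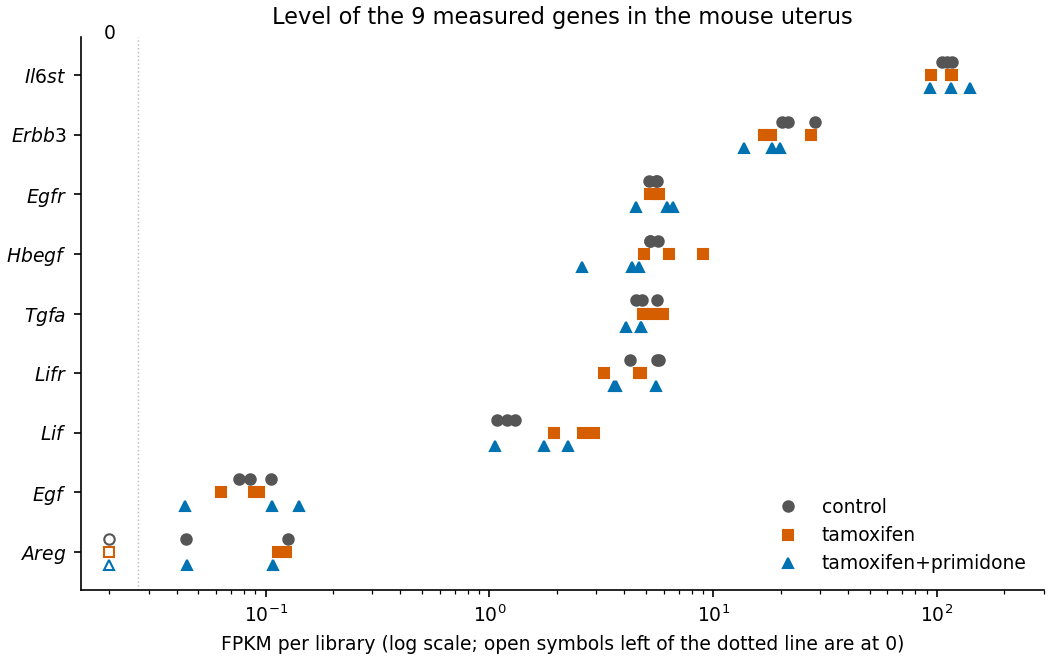
FPKM (log axis) of the 9 measured genes, 1 symbol per library, coloured by group, with genes ordered by their mean over 9 libraries. Il6st and Erbb3 lie apart above a cluster of Egfr, Hbegf, Tgfa and Lifr, and Areg was at 0 in 1 library of each group (open symbols).

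Lif carried the largest difference of the set. It stood at 6.04, 7.12 and 6.75 CPM in the control libraries, at 10.96, 16.1 and 14.7 in the tamoxifen libraries, and at 5.53, 11.9 and 9.38 in the tamoxifen+primidone libraries. The tamoxifen libraries lay above every control library, while tamoxifen+primidone 1 lay below all controls and the other libraries of that group lay above them. From control to tamoxifen the mean went from 6.63 ± 0.551 to 13.9 ± 2.65 CPM (SD, n = 3), a 2.1-fold difference (1.07 ± 0.26 on the log2 scale, edgeR adjusted p = 0.0751), which missed the threshold of 0.05. In that comparison 1.53% of all genes tested passed, and 0 of the 8 genes did. Lif was the single gene of the 8 with non-overlapping groups, where 26.1% of all genes had them, so separation by itself does not set Lif apart.

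The side of the threshold on which Lif fell depended on the setting. Leaving aside a block on replicate number, its log2 fold change was positive in each of 18 other settings and its adjusted p passed in 4: at 0.00271 with DESeq2, 0.0175 with a fit of the control and tamoxifen libraries alone, 0.0174 without tamoxifen+primidone 1 and 0.0476 without tamoxifen+primidone 2. It did not pass when any control or tamoxifen library was left out (edgeR adjusted p from 0.0991 to 0.229), nor in limma-voom (0.0966).

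**Figure D2:**
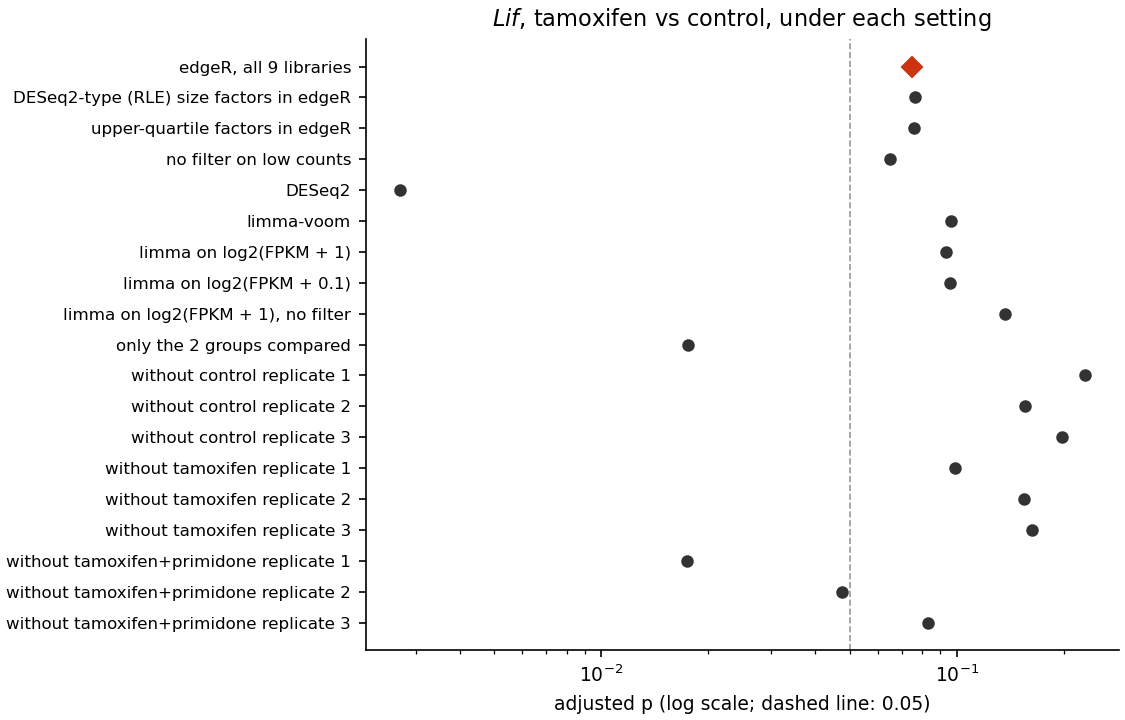
Adjusted p (log axis) of Lif in tamoxifen against control libraries under each setting except the block on replicate number, with the edgeR fit to all 9 libraries as a diamond and 0.05 as a dashed line. Of the 18 other settings drawn, 4 lie to the left of the line.

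In tamoxifen+primidone libraries Lif was at 8.93 ± 3.2 CPM. It differed from tamoxifen by −0.64 ± 0.26 on the log2 scale (edgeR adjusted p = 0.307) and from control by 0.43 ± 0.26 (adjusted p = 0.346), with overlapping groups both times. Tamoxifen+primidone against tamoxifen shares its tamoxifen libraries with tamoxifen against control, so a high value there enters both comparisons with opposite sign. Markers of other cells differed beside Lif. Of a list of 6 gland genes, 5 had a row. Among them Foxa2, a transcription factor of the uterine glands, was at 7.15 to 9.62 CPM in control, 8.22 to 13.5 in tamoxifen and 11.5 to 15.8 in tamoxifen+primidone libraries. The other gland genes were at or below 1.4 CPM in each library. Of these, Wfdc3 did not follow Foxa2, at 0.378 to 0.732, 0.128 to 0.411 and 0 to 0.595 CPM in that order. Neutrophil markers, a list of 5, summed to 14.8 to 43.0, 59.4 to 69.1 and 30.0 to 77.7 CPM in that order. Most of the sum in each library was Retnlg, at 7.79 to 35.8 CPM in control and 36.4 to 48.4 in tamoxifen libraries. Within that list Cxcr2 overlapped between control and tamoxifen. Smooth muscle markers, a list of 7, summed to 7082 to 11360 CPM in control, 5745 to 6951 in tamoxifen and 5374 to 6708 in tamoxifen+primidone libraries, so control lay apart from both. Within that list Des and Lmod1 overlapped between control and tamoxifen, and Tagln and Lmod1 between control and tamoxifen+primidone. Mesothelial markers, a list of 5, summed to 70.5 to 87.2, 92.3 to 144 and 128 to 157 CPM in that order, and control again lay apart. Within that list Wt1 and Upk1b overlapped between control and tamoxifen. The part of these lists and of Foxa2 in the result was not tested. In a bulk sample, more or fewer cells of a type and more or less RNA per cell cannot be told apart. Per 1000 CPM of the 10 epithelial markers, Lif stood at 1.54 to 1.7 CPM in control and 2.4 to 3.67 in tamoxifen libraries, without overlap. On that scale the tamoxifen+primidone libraries stood at 1.77, 3.17 and 2.6, above every control library and overlapping tamoxifen, whereas in CPM tamoxifen+primidone 1 lay below all controls.

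The receptor chains for LIF did not differ detectably. Lifr was at 46.7, 61.5 and 62.0 CPM in control, 51.2, 51.2 and 35.5 in tamoxifen and 57.1, 38.1 and 38.2 in tamoxifen+primidone libraries, and all groups overlapped. Its log2 difference from control was −0.30 ± 0.20 in tamoxifen (edgeR adjusted p = 0.472) and −0.35 ± 0.20 in tamoxifen+primidone libraries (adjusted p = 0.324). Il6st was at 645 ± 39.2, 630 ± 70.3 and 641 ± 120 CPM (n = 3) in control, tamoxifen and tamoxifen+primidone libraries. The approximate interval of its difference (2 standard errors either side) ran from −0.31 to 0.24 on the log2 scale for tamoxifen against control, so a 2-fold change lay outside it.

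**Figure D3:**
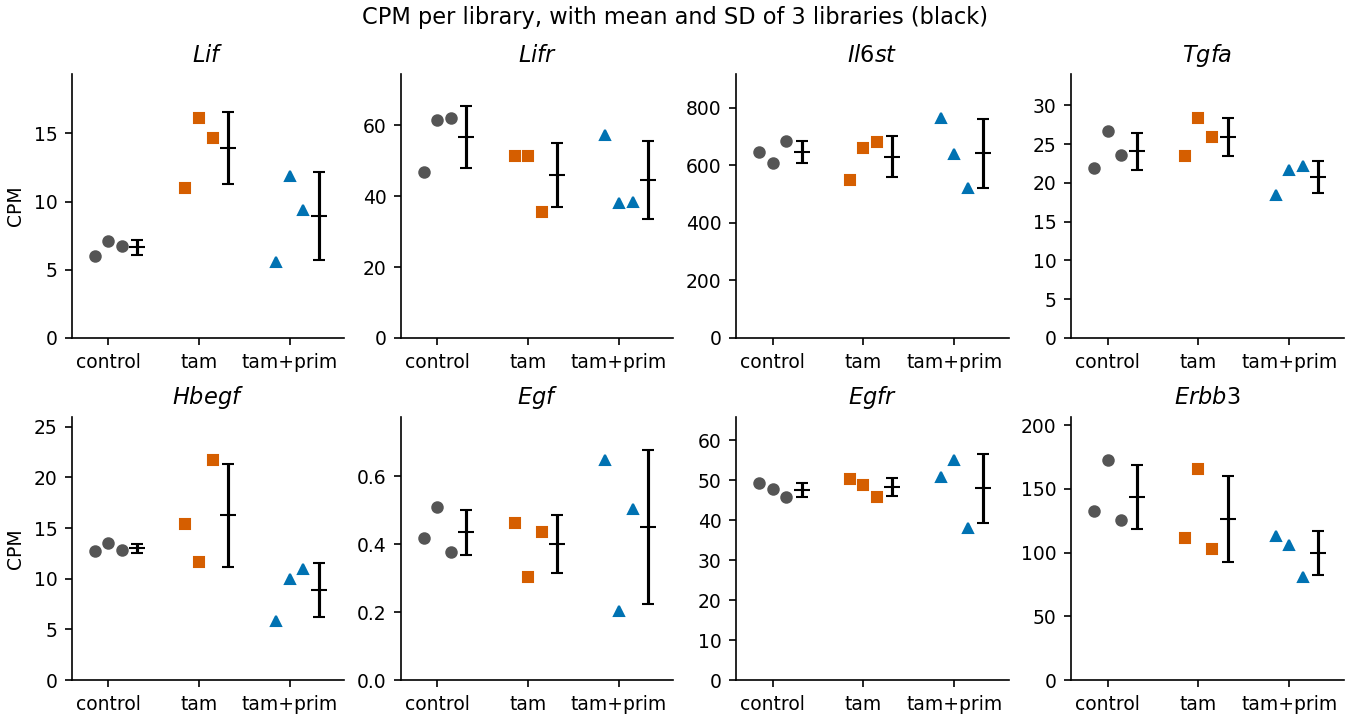
CPM of the 8 tested genes by library on axes that start at 0, with mean and SD of the 3 libraries of each group in black (tam, tamoxifen; tam+prim, tamoxifen+primidone). Lif is higher in each tamoxifen library than in each control library, while Il6st and Egfr are level in mean and spread most in the tamoxifen+primidone group.

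Of the 4 EGFR ligands of the set that were measured, Hbegf and Tgfa were far above Egf and Areg. The EGFR ligand betacellulin, Btc, which is not in the set, was at a mean of 1.68 FPKM. Hbegf, whose protein marks the mouse uterus at the site of embryo attachment, stood at 12.7, 13.5 and 12.8 CPM in control, 15.4, 11.7 and 21.7 in tamoxifen and 5.84, 9.96 and 10.9 in tamoxifen+primidone libraries. The tamoxifen+primidone libraries lay below every library of the other groups. Against tamoxifen the mean went from 16.3 ± 5.06 to 8.91 ± 2.7 CPM (n = 3; −0.87 ± 0.26 on the log2 scale, edgeR adjusted p = 0.199). With DESeq2 the adjusted p was 0.0363, and it was from 0.152 to 0.369 in the other settings. Against control the difference was −0.55 ± 0.26 (edgeR adjusted p = 0.242), and tamoxifen and control overlapped (0.32 ± 0.26, adjusted p = 0.559). Tamoxifen 3 had the highest and tamoxifen+primidone 1 the lowest value, and without one or the other the difference between these groups was −0.60 and −0.64.

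Tgfa was at 21.98, 26.6 and 23.6 CPM in control, 23.5, 28.4 and 26.0 in tamoxifen and 18.4, 21.6 and 22.2 in tamoxifen+primidone libraries. The tamoxifen+primidone group lay below the tamoxifen group without overlap, from 25.9 ± 2.43 to 20.7 ± 2.05 CPM (n = 3; −0.32 ± 0.12 on the log2 scale, edgeR adjusted p = 0.275), and overlapped with control (−0.21 ± 0.12, adjusted p = 0.307). The tamoxifen group also overlapped with control (0.11 ± 0.12, adjusted p = 0.689).

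Between tamoxifen+primidone and tamoxifen libraries 0.0132% of all genes tested passed in edgeR, and 0 of the 8 genes did. Without adjustment, 3 of the 8 (Hbegf, Tgfa and Lif) had p under 0.05, where 13.8% of all genes did, and 2 of the 8 had non-overlapping groups, where 16.6% of all genes did. DESeq2 called 1 of the 8, Hbegf, and limma-voom 0. All 3 are ligands. The sum of 10 epithelial markers was lower in the tamoxifen+primidone libraries, at 3130 to 3748 against 4263 to 4570 CPM. Among these markers Epcam and Krt18 overlapped between the groups, and Wnt7a was higher in each tamoxifen+primidone library (44.4 to 51.7 CPM) than in each tamoxifen library (23.3 to 36.5). Per 1000 CPM of these markers, Tgfa stood at 5.77 to 6.13 CPM in tamoxifen+primidone and 5.14 to 6.46 in tamoxifen libraries, so the groups overlapped on that scale. Hbegf stood at 1.87 to 3.02 and 2.66 to 5.09 CPM on the same scale and overlapped as well. The part of epithelial content in these differences was not tested.

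Egf and Areg were barely detected. Egf had 8 to 25 counts per library, and its approximate intervals spanned −1.21 to 0.97 (tamoxifen against control) and −0.92 to 1.26 (tamoxifen+primidone against tamoxifen) on the log2 scale, so a 2-fold fall lay inside the first and a 2-fold rise inside the second. Areg had 26 counts in all: 6, 2 and 0 in control, 6, 5 and 0 in tamoxifen and 2, 5 and 0 in tamoxifen+primidone libraries. A count of 0 allows up to 0.0755 to 0.0809 CPM in those 3 libraries (3 counts, for counting error only), and no fold is given. Amphiregulin is known as a progesterone-responsive gene of the uterine epithelium around implantation. Estrous stage is not named for these mice, and the part of hormonal state in the low counts was not tested.

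The EGF receptor was the steadiest gene of the set by group mean. Egfr stood at 49.2, 47.9 and 45.8 CPM in control, 50.4, 48.9 and 45.8 in tamoxifen and 50.8, 55 and 38.2 in tamoxifen+primidone libraries. Its log2 difference was 0.02 ± 0.12 for tamoxifen against control (edgeR adjusted p = 0.951), with an approximate interval from −0.22 to 0.27, and 0.01 ± 0.12 for tamoxifen+primidone against control (adjusted p = 0.968). The liver, whose markers were highest in the tamoxifen+primidone libraries, is also known to express Egfr, and its part was not tested.

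Erbb3 stood at 133, 172 and 126 CPM in control, 111, 165 and 103 in tamoxifen and 114, 106 and 80.7 in tamoxifen+primidone libraries. The tamoxifen+primidone libraries lay below every control library, from 144 ± 25 to 99.99 ± 17.2 CPM (n = 3; −0.52 ± 0.20 on the log2 scale, edgeR adjusted p = 0.161). The tamoxifen group overlapped with both. In tamoxifen+primidone against control 5.35% of all genes tested passed, and 0 of the 8 genes did. Erbb3 alone of the 8 had an unadjusted p under 0.05, where 23.2% of all genes did, and Hbegf and Erbb3 had non-overlapping groups, where 29.1% of all genes did. The difference of Erbb3 was −0.37 without control 2, the library with the highest value, and −0.39 without tamoxifen+primidone 3, the lowest. Per 1000 CPM of the epithelial markers Erbb3, an epithelial receptor, stood at 30.0 to 41.1 CPM in control and 22.3 to 36.3 in tamoxifen+primidone libraries. The groups overlapped through tamoxifen+primidone 1 (36.3), while tamoxifen+primidone 2 (28.2) and 3 (22.3) lay below every control library. The part of epithelial content in this difference was not tested.

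**Figure D4:**
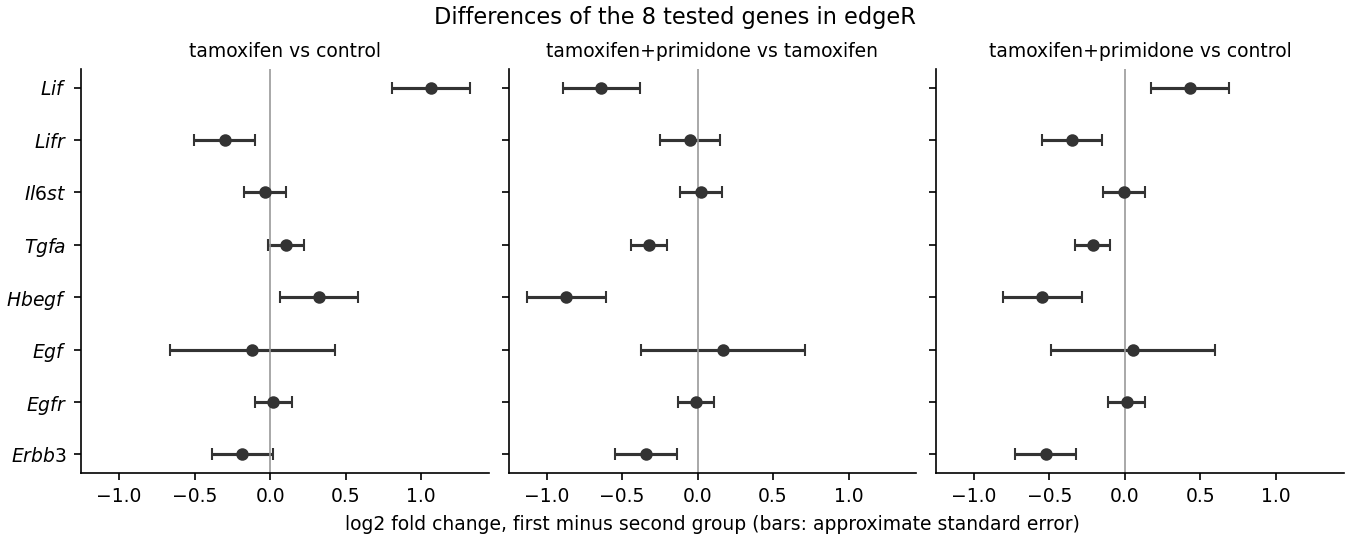
Log2 fold changes of the 8 tested genes in the 3 comparisons, first minus second group, with approximate standard errors as bars. Lif in tamoxifen against control (1.07) and Hbegf in tamoxifen+primidone against tamoxifen (−0.87) are farthest from 0, and none of the 24 differences passed edgeR's adjusted threshold.

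A test of any difference among the 3 groups called 3.84% of all genes and 0 of the 8, and without adjustment 23.4% of all genes and 2 of the 8, Lif and Hbegf, had p under 0.05. The smallest p was that of Lif (edgeR adjusted p = 0.0802), followed by Hbegf (adjusted p = 0.147), Tgfa (adjusted p = 0.232) and Erbb3 (adjusted p = 0.268). Likeness was measured by Pearson correlation of log2 CPM over the 9 libraries, a description over libraries that share groups. The genes closest to Lif among 13692 were Nod2, a sensor of bacterial muramyl dipeptide (r = 0.989), Cdc42bpb (0.952) and Slc5a8, a transporter of short-chain fatty acids (0.948). Nod2 ran from 5.43 to 19.4 CPM over the 9 libraries, a span like that of Lif (5.53 to 16.1). The closest to Hbegf were Tnfrsf22 (0.963), Ralgapa2 (0.959) and Bcar3 (0.954), the closest to Tgfa were Stxbp2 (0.937), Cdk16 (0.936) and Fam181b (0.923), and the closest to Erbb3 were Ahr, the aryl hydrocarbon receptor, and the ephrin receptor gene Ephb3 (both 0.969) and Gpbp1l1 (0.965). Among the 8 genes themselves, the highest of 28 correlations were Hbegf with Tgfa (0.715) and Lifr with Erbb3 (0.668), and the lowest was Lif with Lifr (−0.563).

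The rest of both pathways was followed in 10 lists of 102 genes, of which 95 were tested. In tamoxifen against control 1 rose and 2 fell, where 1.53% of all genes tested passed. The median log2 fold change was 0.09, against 0.00 over all genes. Phlda1, a gene induced by MAP kinase signalling, rose from 16.7 ± 1.71 to 28.2 ± 4.23 CPM (n = 3; 0.75 ± 0.15 on the log2 scale, edgeR adjusted p = 0.0413). Its list, of ERBB and MAP kinase responsive genes, showed no common direction, with 5 positive and 5 negative of 10 tested (median −0.01). Among the negative ones were Etv5 (−0.66, edgeR adjusted p = 0.158) and Ier2 (−0.32, adjusted p = 0.159). Timp3, an inhibitor of the ligand-shedding protease ADAM17, fell from 313 ± 12.1 to 229 ± 12.2 CPM (−0.45 ± 0.09, edgeR adjusted p = 0.042). Spred2, an inhibitor of the RAS to RAF step, fell from 119 ± 4.96 to 94.6 ± 2.62 CPM (−0.33 ± 0.07, edgeR adjusted p = 0.0463). Leaving out any control library ended each of these calls, as did leaving out any tamoxifen library except tamoxifen 2 for Phlda1, with edgeR adjusted p of up to 0.129, 0.154 and 0.157 in the order given. The call of Spred2 was also lost without tamoxifen+primidone 2 (adjusted p = 0.0583) or 3 (adjusted p = 0.0507), without a low-count filter (adjusted p = 0.055), in limma-voom (adjusted p = 0.0563) and in the 3 limma fits of FPKM (adjusted p from 0.144 to 0.155). That of Phlda1 was also lost in limma on FPKM without a filter (adjusted p = 0.0637). Of 19 alternatives in all, Spred2 passed in 5 and Phlda1 and Timp3 in 13 each.

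By list, the JAK-STAT3 arm had 13 of 16 genes with a positive log2 fold change in tamoxifen against control (median 0.10). The shedding list had 9 of 10 (median 0.19), with 0 risen in either. Over all lists 62 of 95 were positive. The JAK-STAT3 list mixes kinases with inhibitors, so its count gives no direction of signalling. In tamoxifen+primidone against tamoxifen, which shares the tamoxifen libraries, 13 of 16 and 9 of 10 were negative (medians −0.22 and −0.19, against 0.02 over all genes). Over all lists 57 of 95 were negative there. Jak1 and Ptpn11 were positive, and Pias3 and Junb negative, in both comparisons. In tamoxifen+primidone against tamoxifen 0 of the 95 genes passed, where 0.0132% of all genes tested did. Among the smallest p there were those of Ier3, an immediate early gene, at 46.7 ± 6.92 against 128 ± 55.2 CPM (n = 3; −1.46 ± 0.29, edgeR adjusted p = 0.112) and of Hoxa10, a homeobox factor of the endometrial stroma, at 127 ± 13.2 against 86.1 ± 13.2 CPM (0.56 ± 0.14, adjusted p = 0.142). Ier3 stood at 182 CPM in tamoxifen 2 and 71.6 in tamoxifen 1, and without tamoxifen 1 its edgeR adjusted p was 0.0219. DESeq2 called both, with adjusted p of 7.65e-06 and 0.0132 in that order.

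In tamoxifen+primidone against control 1 of the 95 list genes rose and 3 fell, where 5.35% of all genes tested passed. Il11ra1, the receptor chain for the related cytokine interleukin-11, rose from 32.3 ± 4.84 to 48.8 ± 2.79 CPM (n = 3; 0.60 ± 0.12 on the log2 scale, edgeR adjusted p = 0.0218). Junb, an AP-1 subunit, fell from 163 ± 6.94 to 94.5 ± 10.9 CPM (−0.79 ± 0.12, edgeR adjusted p = 0.0103). Spred2 fell by 0.32 ± 0.07 and Ier2, an immediate early gene, by 0.47 ± 0.11 on the log2 scale (edgeR adjusted p = 0.0308 and 0.0398). Junb lost its call without control 1 (adjusted p = 0.0511), and Il11ra1 without control 2 (adjusted p = 0.0588), control 3 (adjusted p = 0.0704) or tamoxifen+primidone 2 (adjusted p = 0.0652). Spred2 and Ier2 each lost it without any one of the control or tamoxifen+primidone libraries (adjusted p of up to 0.104 and 0.144), and Ier2 also without tamoxifen 1 (adjusted p = 0.0517). Both also missed in the 3 limma fits of FPKM (adjusted p from 0.149 to 0.179 for Spred2 and from 0.0572 to 0.0809 for Ier2), and Spred2 in the fit of these 2 groups alone (adjusted p = 0.0545). Each passed in 9 of 19 alternatives.

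**Figure D5:**
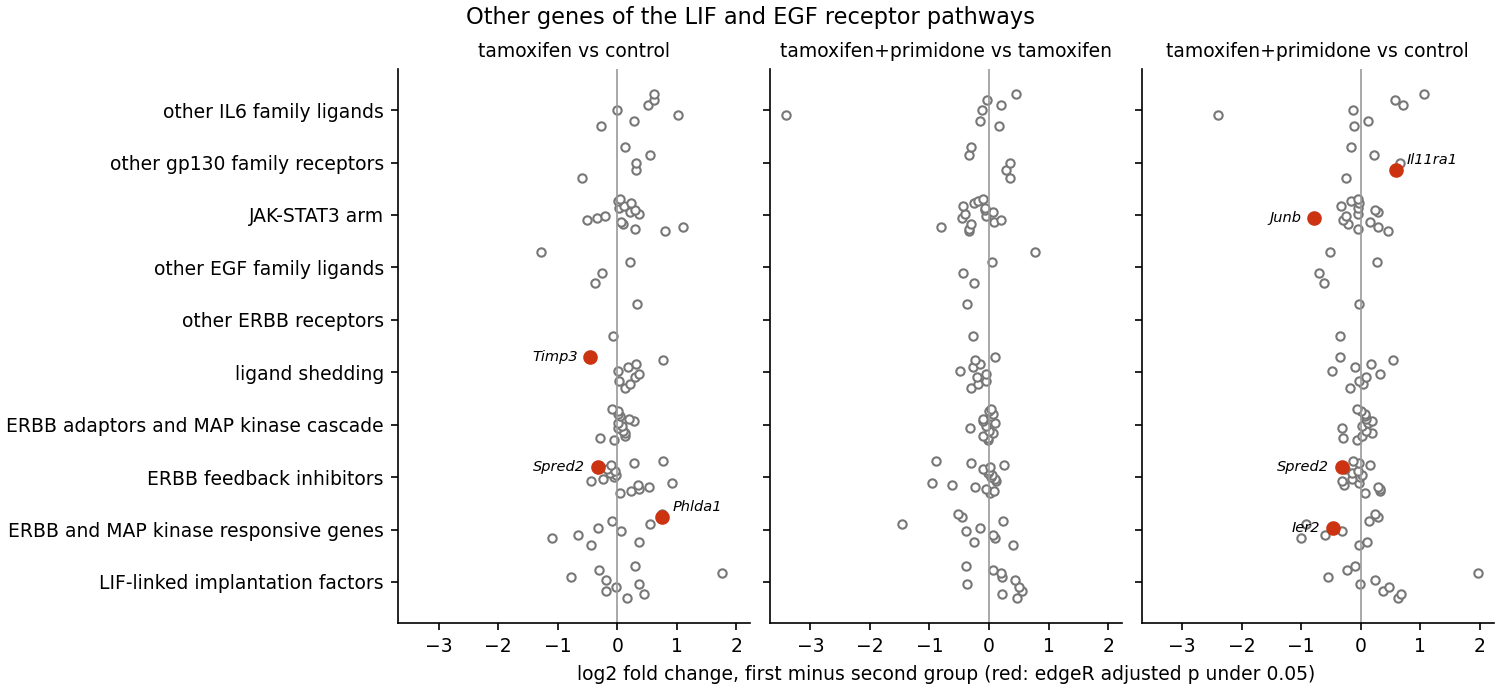
Log2 fold changes of the 95 tested genes of the 10 pathway lists in the 3 comparisons, 1 circle per gene, with genes past edgeR's adjusted threshold in red and named. The left panel holds 3 red genes, the middle none and the right 4.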

How the data were processed

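Read counts, whole numbers per gene symbol and not normalized, and FPKM values for the same 18094 genes are the 2 tables the authors deposited. The submitters' processing notes name HISAT2, HTSeq, R 3.2.0, DESeq2 and build GRCm39. For the annotation, the strand setting and the other versions the sources give nothing, so reads of overlapping or antisense genes cannot be told apart. Group and replicate number came from each library's title. Nothing states that the numbers pair animals, and p-values measure the spread between these 3 mice a group. No replicates agreed within counting noise (chi-square per degree of freedom 19.57 to 78.47).

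The main test was edgeR's quasi-likelihood test (edgeR 4.0.16, R 4.3.3), two-sided, with TMM scaling, the default low-count filter by group, 1 fit of all 9 libraries, and Benjamini-Hochberg adjustment over 15186 genes at a threshold of 0.05. The procedure was also run on simulated counts. These had the same relative spread for every gene, a simplification, so no conclusion about the calls is drawn from them. A standard error is approximate, namely the size of the log2 fold change over the root of its F. FPKM served for levels between genes and in limma 3.58.1, on log2(FPKM + 1) for genes with a mean of at least 0.5. DESeq2 1.42.0 and limma-voom were alternatives.

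The 10 genes and the lists were chosen with earlier results of these data known. Named are the 10 genes, list genes that passed or, where fewer than 3 did, the 3 with the smallest p (1 of these is not reported here), and for the 4 genes with the smallest F-test p the 3 most correlated genes with a mean of at least 1 CPM. Promoters are RefSeq's on GRCm38.p6.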

Additional observations from a re-analysis of the deposited data

How the results depend on the processing

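With edgeR and all 9 libraries 0 of the 8 genes passed in any comparison. In tamoxifen against control 1 passed (Lif) with DESeq2, with the fit of the 2 groups compared alone and with the replicate block, and leaving out 1 library gave 0 to 1. In tamoxifen+primidone against tamoxifen 1 passed (Hbegf) with DESeq2. The replicate block gave 1 (Erbb3, adjusted p = 0.0408) in tamoxifen+primidone against control and 1 (Lif) in the test of any difference, where leaving out 1 library gave 0 to 1. For Lif in tamoxifen against control the replicate block gave a log2 fold change of 1.05 (edgeR adjusted p = 0.0307). It ended the call of Spred2 in that comparison (adjusted p = 0.0632). Whether the numbers pair the libraries is not settled by these values. Deviations from group means correlated from −0.134 to 0.177 for same-numbered libraries of different groups. For differently numbered ones they correlated from −0.291 to 0.158, so the ranges overlapped, and such correlations cannot exclude a shared litter or batch.

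Log2 fold changes near 0 changed sign, none of them called. With limma on FPKM, Lifr in tamoxifen+primidone against tamoxifen came to 0.015 with a pseudocount of 1, 0.017 with 0.1 and 0.015 without a filter, Egfr in that comparison to 0.041, 0.045 and 0.041, and Il6st against control to 0.052 each time. Upper-quartile factors gave 0.025 for that Egfr difference and 0.022 for that of Il6st. In tamoxifen+primidone against control, Egf came to −0.051 with the replicate block and −0.092 with limma-voom, and Egfr to −0.001 and −0.006. Leaving out 1 library gave, in tamoxifen against control, −0.096 to 0.053 for Il6st, −0.234 to 0.048 for Egf and −0.009 to 0.059 for Egfr. In tamoxifen+primidone against tamoxifen it gave −0.273 to 0.049 for Lifr, −0.12 to 0.154 for Il6st, −0.186 to 0.512 for Egf and −0.125 to 0.129 for Egfr. Against control it gave −0.151 to 0.123 for Il6st, −0.299 to 0.399 for Egf and −0.099 to 0.155 for Egfr. The direction of Lif, Hbegf, Tgfa and Erbb3 was the same under each alternative run in all 3 comparisons, and levels of the 9 genes as CPM per kilobase stayed within 1 SD of their FPKM. The cause of these shifts was not tested.

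Over all genes, the 233 calls of tamoxifen against control became 1112 with DESeq2, 546 with these 2 groups alone, 144 with limma on FPKM without a filter and 22 to 439 without 1 library. The 2 calls of tamoxifen+primidone against tamoxifen became 578 with DESeq2, 53 with the replicate block, 21 without a low-count filter, 9 with DESeq2-type size factors, 0 to 1 with limma on FPKM and 0 to 85 without 1 library. The 812 calls against control became 1882 with DESeq2 and 122 to 800 without 1 library, and the 583 calls of any difference 59 to 664 without 1 library. Egf (8 to 25 counts per library) and Areg (0 to 6) had the fewest counts of the 9 genes.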

Other observations

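The summed level of the 4 EGFR ligands of the set that were measured, and the share of Hbegf in it, varied among libraries. Btc, at a mean of 1.68 FPKM, is outside the set and was not in the sum. The FPKM of Areg, Hbegf, Egf and Tgfa together came to 9.97, 11.4 and 10.1 in control, 11.4, 11.03 and 14.4 in tamoxifen and 6.84, 9.24 and 9.55 in tamoxifen+primidone libraries, so each tamoxifen+primidone library lay below each library of the other groups. Hbegf made up 49.7% to 52.4% of the sum in control, 44.4% to 62.1% in tamoxifen and 37.8% to 49.0% in tamoxifen+primidone libraries. The ratio of Hbegf to Tgfa FPKM was highest in tamoxifen 3 (1.67) and lowest in tamoxifen+primidone 1 (0.634).

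The ratio of Lifr to Lif FPKM, receptor to ligand, was 3.94, 4.4 and 4.68 in control and 2.38, 1.62 and 1.23 in tamoxifen libraries, which did not overlap. In tamoxifen+primidone libraries it was 5.26, 1.63 and 2.08, with replicate 1 above every control library. The ratio of Erbb3 to Egfr FPKM was 3.87 to 5.16 in control, 3.17 to 4.85 in tamoxifen and 2.75 to 3.2 in tamoxifen+primidone libraries. These ratios were computed after the values of the genes were seen and carry no test.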
